A study of Mus musculus with 10 samples.

Results

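The control cells of clone 4T1-T were described at baseline, with no comparison against the knockdown lines of the same study. 4T1 is a mouse mammary carcinoma line of BALB/c origin that spreads to distant organs from its site of growth, and 4T1-T is a population grown out of a single cell of it. The cells carry a hairpin RNA against Renilla luciferase (shRenilla), a gene that mouse cells lack, so the group stands for infected, hairpin-bearing cells and not for untouched ones. They grew in culture, in DMEM with 2 sera (fetal bovine and fetal calf, 5% each), with no tumour stroma and no host. Both libraries whose labels name shRenilla, A and B, were taken, which is 2 of the 10 libraries of the series. All values therefore come from 1 clone and 1 hairpin. Nothing in the labels tells whether A and B were separate cultures, and their spread may be technical.

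Levels are in TPM, the share of transcripts scaled to a fixed total, computed here from read counts recovered from the deposited table and divided by the merged exon length of each gene, so that genes of different length can be set side by side. Pairs of values are library A followed by library B. A gene is called expressed at 1 TPM or more in both libraries and abundant at 100 TPM or more in both. Library A held 17233255 reads and library B 16686493. With 1 group there is nothing to test, and the difference between A and B is the only measure of error. That difference was small. Over 12067 entries with a mean of at least 10 reads the median absolute log2 ratio of A to B was 0.088. It was 0.047 among abundant entries and 0.18 among those between 1 and 10 TPM. No abundant entry and 35 of 11633 expressed ones lay over 2-fold apart. The gap between A and B exceeded what counting alone gives (chi-square divided by its degrees of freedom, 2.51), which does not show that they are separate cultures. They were counted as 2, as the labels list them.

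Epithelial cells hold to each other through E-cadherin, desmosomes and tight junctions, and carry keratins as their filaments. In an epithelial-mesenchymal transition (EMT), transcription factors such as those of the Snai, Zeb and Twist families lower these genes, and vimentin, fibronectin and motility genes rise. Carcinoma cells can hold parts of both programs. Outside the cell, proteases that cut matrix and clotting factors are held in check by secreted inhibitors. Serpins trap serine proteases, and WAP-domain proteins, TIMPs and cystatins block elastases, metalloproteinases and cathepsins.

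The 5 genes chosen as markers of the clone were all expressed, against 51.7% of all entries. They were picked by name, so that count says nothing of the clone as a whole. Spp1, which encodes the secreted phosphoprotein osteopontin (chr5:104435118-104441050, plus strand, GRCm38), stood at 3496 and 3757 TPM and ranked 13th among 20327 protein-coding genes. Cdh1, which encodes E-cadherin (chr8:106603351-106670246, plus strand), stood at 514 and 484 TPM. Slpi, a secreted inhibitor of neutrophil elastase (chr2:164354070-164389095, minus strand), stood at 249 and 269 TPM. These 3 genes were abundant in both libraries. Serpine2, a secreted inhibitor of thrombin and urokinase (chr1:79794197-79861180, minus strand), stood at 97.0 and 91.7 TPM. Krt7, a keratin of simple epithelium (chr15:101411043-101430313, plus strand), stood at 69.7 and 62.8 TPM. The order Spp1, Cdh1, Slpi, Serpine2 and Krt7 was the same in A and B, and no neighbours in it overlapped between libraries. By reads Spp1 and Cdh1 were highest as well. Serpine2 (3091 and 2854 reads) and Krt7 (1890 and 1662 reads) were then above Slpi (1129 and 1192 reads). The place of Slpi in this order thus rests on the gene lengths used. The level of Serpine2 depends on the gene model. With the longest transcript in place of merged exons it was 174 TPM as the mean of both libraries, while Slpi was 264 TPM.

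**Figure D1:**
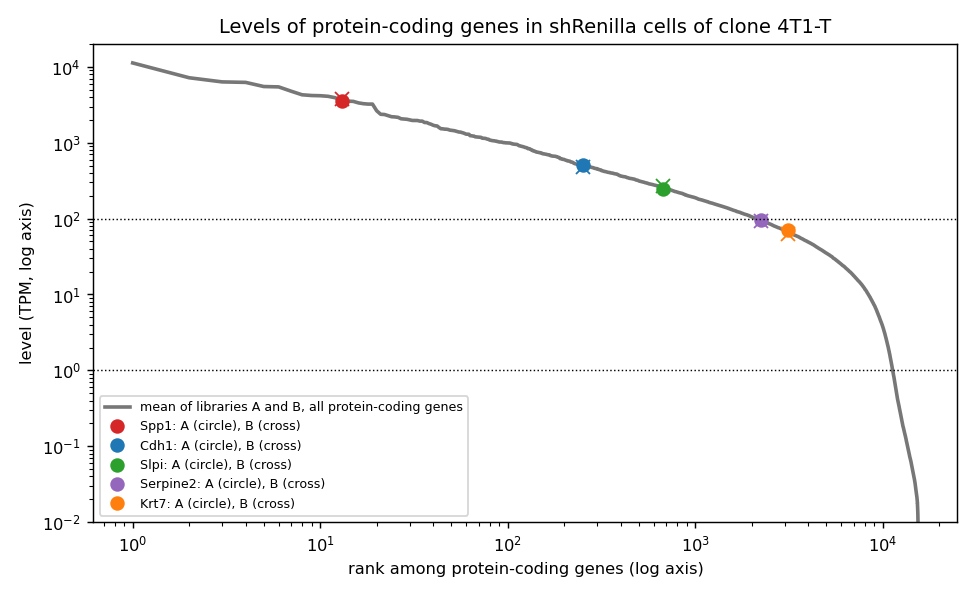
Level in TPM (log axis) of every protein-coding gene with at least 1 read in shRenilla cells against its rank (log axis). The grey line is the mean of libraries A and B, circles and crosses are the 5 marker genes in A and in B, and dotted lines mark 1 and 100 TPM. Spp1 lies near the top of the curve, and Serpine2 and Krt7 lie just below 100 TPM.

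The sequences upstream of 5 of the expressed genes and of 1 silent gene are shown because their level and their CpG content bear on a pattern described further on. Each run is the 250 bases before a RefSeq start (GRCm38.p6), 5′ to 3′ on the strand of the gene, and capitals mark CpG dinucleotides. Serpine2 (chr1:79858666-79858915, minus strand) held 34 CpG and Slpi (chr2:164356508-164356757, minus strand) held 2. Spp1 (chr5:104434861-104435110, plus strand) held 3, Vim (chr2:13574061-13574310, plus strand) held 8 and Hoxa5 (chr6:52204588-52204837, minus strand) held 28. Cdkn2a, which was at 0 reads, held 40 CpG before its upstream start (chr4:89294620-89294869, minus strand).
Serpine2: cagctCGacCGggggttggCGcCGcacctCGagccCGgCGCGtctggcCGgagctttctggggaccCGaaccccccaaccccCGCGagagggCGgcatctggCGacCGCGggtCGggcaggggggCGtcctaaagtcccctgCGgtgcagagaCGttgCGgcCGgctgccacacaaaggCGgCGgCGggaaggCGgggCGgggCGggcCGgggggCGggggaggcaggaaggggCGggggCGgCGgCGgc
Slpi: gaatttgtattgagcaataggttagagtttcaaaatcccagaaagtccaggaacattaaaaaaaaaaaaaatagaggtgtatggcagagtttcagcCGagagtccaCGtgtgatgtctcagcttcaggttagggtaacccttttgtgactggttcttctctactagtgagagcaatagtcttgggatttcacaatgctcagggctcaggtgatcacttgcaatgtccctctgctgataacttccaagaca
Spp1: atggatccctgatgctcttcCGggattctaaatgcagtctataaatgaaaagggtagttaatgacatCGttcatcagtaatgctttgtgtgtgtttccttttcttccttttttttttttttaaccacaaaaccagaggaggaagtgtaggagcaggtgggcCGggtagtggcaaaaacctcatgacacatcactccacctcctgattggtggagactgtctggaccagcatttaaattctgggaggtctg
Vim: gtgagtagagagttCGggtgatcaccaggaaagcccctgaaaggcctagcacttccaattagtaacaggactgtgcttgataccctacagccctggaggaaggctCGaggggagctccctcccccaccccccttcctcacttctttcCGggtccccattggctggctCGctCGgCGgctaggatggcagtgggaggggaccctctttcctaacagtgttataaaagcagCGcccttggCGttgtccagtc
Hoxa5: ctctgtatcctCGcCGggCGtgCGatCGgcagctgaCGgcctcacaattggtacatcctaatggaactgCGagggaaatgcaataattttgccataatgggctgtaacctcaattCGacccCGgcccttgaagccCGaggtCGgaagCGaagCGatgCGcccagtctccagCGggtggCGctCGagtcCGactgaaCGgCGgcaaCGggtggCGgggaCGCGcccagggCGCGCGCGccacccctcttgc
Cdkn2a: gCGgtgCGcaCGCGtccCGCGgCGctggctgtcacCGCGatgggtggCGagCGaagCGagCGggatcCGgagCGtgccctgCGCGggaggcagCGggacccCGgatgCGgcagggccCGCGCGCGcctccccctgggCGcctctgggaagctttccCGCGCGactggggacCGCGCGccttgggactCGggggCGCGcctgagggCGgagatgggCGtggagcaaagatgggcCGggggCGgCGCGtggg

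Of 23479 entries in the table, 14760 had at least 1 read in both libraries, 2407 in 1 library alone and 6312 in neither. Among the 23008 entries with a length, 11905 (51.7%) were expressed and 2144 (9.32%) were abundant. Of the protein-coding genes, 11130 were expressed. The 10 highest entries held 6.74% and 7.104% of all TPM, the 100 highest 22.5% and 22.9%, and the 1000 highest 56.3% and 56.7%.

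By reads, the 2 largest entries were noncoding. Malat1, a long noncoding RNA kept in nuclear speckles, took 1.46% and 1.54% of reads. Rn45s, the precursor of ribosomal RNA, took 1.003% and 1.21% and has no length here. Pabpc1, which binds poly(A) tails, was next in A and just below Ywhaz in B, at 0.524% and 0.503%. Ywhaz, a 14-3-3 adaptor, took 0.503% and 0.512%. Mki67, the proliferation antigen Ki-67, was also among the 10 entries with the most reads, at 60151 and 61084 reads and 1555 and 1616 TPM.

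Per length, the highest protein-coding gene was B2m, the light chain of MHC class I molecules, at 10927 and 11575 TPM. Several other short genes were high. S100a11 stood at 6596 and 7757 TPM, S100a4, which is linked to motility and metastasis, at 5944 and 6529.6 TPM, and S100a6 at 3117 and 3336 TPM. The galectin gene Lgals1 stood at 6061 and 6599 TPM. All 5 of these genes were higher in B than in A. Other S100 genes ranged widely. S100a10 stood at 1092 and 1193 TPM, S100a1 at 63.0 and 59.8 TPM and S100a13 at 27.3 and 23.8 TPM. S100a16 stood at 1.13 and 1.15 TPM, S100a14 at 0.452 and 1.695 TPM and S100a9 at 0 reads.

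Chaperone genes were high as a list. All 16 of 16 chaperone genes were expressed, 15 of them abundant, with 24618 and 23890 TPM in sum. The cytosolic Hsp90 gene Hsp90ab1 stood at 5558 and 5321 TPM and its partner Hsp90aa1 at 2620.1 and 2652 TPM. The endoplasmic reticulum chaperones Hsp90b1 and Hspa5 stood at 3414 and 3281 TPM and at 3353 and 3102 TPM. The median of the chaperone list was 996 TPM, against 27.4 and 27.2 TPM over all expressed entries. All 12 translation factors in the list were abundant, and so were 22 of 29 cytoskeleton genes and 8 of 18 genes of glycolysis and glucose uptake, against 9.32% of all entries. Eef1a1, an elongation factor, stood at 4891 and 4649.9 TPM, Atp5b, a subunit of ATP synthase, at 4235 and 4139.9 TPM (7000.2 TPM by longest transcript, as the mean of both), and Ldha, the lactate dehydrogenase of glycolysis, at 3359.6 and 3173 TPM. Actb, cytoplasmic actin, stood at 4013 and 4165 TPM, and the 14-3-3 adaptors Ywhaz and Ywhae at 5473 and 5527 TPM and at 4178 and 4385 TPM. The nucleolar protein gene Npm1 stood at 3847 and 3989 TPM and the histone chaperone gene Anp32b at 2357 and 2382 TPM. Of 86 cytosolic ribosomal protein genes 80 were expressed, together 36103 and 36529 TPM.

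Genes with near-identical copies elsewhere in the genome gave levels that cannot be read at face value. Eno1, a glycolytic enolase, had 49 and 39 reads, while its near-identical copy, listed as Gm5506, had 13349 and 12161 reads. Rpl26, a ribosomal protein gene with many processed copies, was listed at 0 in both libraries. A listed 0 therefore does not by itself show that a transcript was missing, and genes with close copies are uncertain throughout.

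Junction and adhesion genes of epithelium were mostly on. Of 42 genes in that list 34 were expressed (80.95%, against 51.7% of all entries), and 11 were abundant, against 9.32% of all entries. Cldn8 was the single member at 0 reads. Beside Cdh1, the catenins that tie cadherins to actin were high, with Ctnnb1 (beta-catenin) at 929 and 893 TPM, Ctnnd1 (p120 catenin) at 419 and 409.8 TPM and Ctnna1 (alpha-catenin) at 275 and 263 TPM. Perp, a desmosomal membrane protein, stood at 229 and 224 TPM, and Tjp1, the tight junction scaffold ZO-1, at 225 and 222 TPM. Gja1, a gap junction gene, stood at 155 and 158 TPM, or 312 TPM by longest transcript. Epcam, the epithelial adhesion molecule, stood at 146 and 145 TPM and the claudin genes Cldn3, Cldn4 and Cldn7 at 66.5 and 61.7 TPM, at 21.3 and 23.3 TPM and at 5.61 and 7.11 TPM. Each of these claudin genes was below Cdh1 and the 3 catenin genes in both libraries.

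Genes that mark epithelial identity were also mostly on. Of 35 such genes 26 were expressed (74.3%, against 51.7% of all entries) and 6 were abundant, against 9.32% of all entries. None was at 0 reads in both libraries, against 26.9% of all entries, but 9 were under 1 TPM in at least 1 library. Among these, Ovol2 had 3 and 0 reads in A and B, Elf5 had 2 and 1 and Ehf had 0 and 1. The surface protein gene Cd24a stood at 1344 and 1416 TPM, the laminin-binding integrin gene Itga6 at 312 and 303 TPM (487 TPM by longest transcript) and the luminal transcription factor gene Gata3 at 127 and 125 TPM. Esrp1, a splicing factor of epithelium, stood at 14.4 and 13.3 TPM, and Grhl2, a transcription factor that holds junction genes on, at 15.2 and 14.4 TPM. Trp63, a master factor of basal epithelium, had 2 and 0 reads in A and B, which is under the limit of 3 reads.

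Keratins of simple epithelium were the highest of their family. Of 49 keratin genes in the table, 8 with a length were expressed and 27 (55.1%) were at 0 reads in both libraries, against 26.9% of all entries. Krt18 and Krt8, which pair in simple epithelium, stood at 944 and 933 TPM and at 421 and 391 TPM. Krt19 stood at 74.2 and 75.5 TPM, close to Krt7 at 69.7 and 62.8 TPM. That closeness rests on the gene lengths used, as Krt19 had 529 and 526 reads and Krt7 1890 and 1662. Krt14, the type I keratin of basal cells, stood at 16.1 and 16.5 TPM. Its usual partner Krt5 was at 0 reads, where 3 reads would be 0.355 and 0.363 TPM. Krt6a, Krt6b and Krt4, keratins of stratified or stressed epithelium, were at 0 reads as well.

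Mesenchymal genes were on for some members and silent for others. Of 41 genes 21 were expressed (51.2%, against 51.7% of all entries), and 9 were abundant, against 9.32% of all entries. At 0 reads were 6 (14.6%), against 26.9% of all entries. Vim, the intermediate filament vimentin, stood at 3642 and 3417 TPM, above Krt18 and Krt8 together in both libraries. Fn1, fibronectin, stood at 1014 and 937 TPM, the receptor kinase gene Axl at 1288 and 1182 TPM and the hyaluronan receptor gene Cd44 at 996 and 998 TPM. Sparc, a matricellular protein, stood at 360.1 and 337 TPM, and the 5′-nucleotidase gene Nt5e at 177 and 172 TPM, or 284 TPM by longest transcript.

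Other mesenchymal genes had no reads in the same libraries. Cdh2, N-cadherin, was at 0 reads in both libraries, where 3 reads would be 0.0967 and 0.0990 TPM. Col3a1, Thy1, Lum, Lox and Ncam1 were also at 0. The collagen I chains Col1a1 and Col1a2 stood at 0.238 and 0.162 TPM and at 0.0209 and 0.0643 TPM, and Pdgfrb at 0.0475 and 0.0486 TPM. E-cadherin and vimentin transcripts were thus both abundant in a clonal population that had no reads of N-cadherin. The sum over the 41 mesenchymal genes was 17499 and 17890.1 TPM, and that over 125 epithelial genes, keratins included, was 8112 and 7996 TPM. Much of the mesenchymal sum came from S100a4, at 5944 and 6529.6 TPM, and Spp1, at 3496 and 3757 TPM, which are counted in that list. The medians ran the other way from the sums, at 1.67 TPM for mesenchymal and 2.43 TPM for epithelial genes. The epithelial median depends on the make-up of that list. Its parts had medians of 34.2 TPM for junction genes, 8.84 TPM for identity genes and 0 TPM for keratins.

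**Figure D2:**
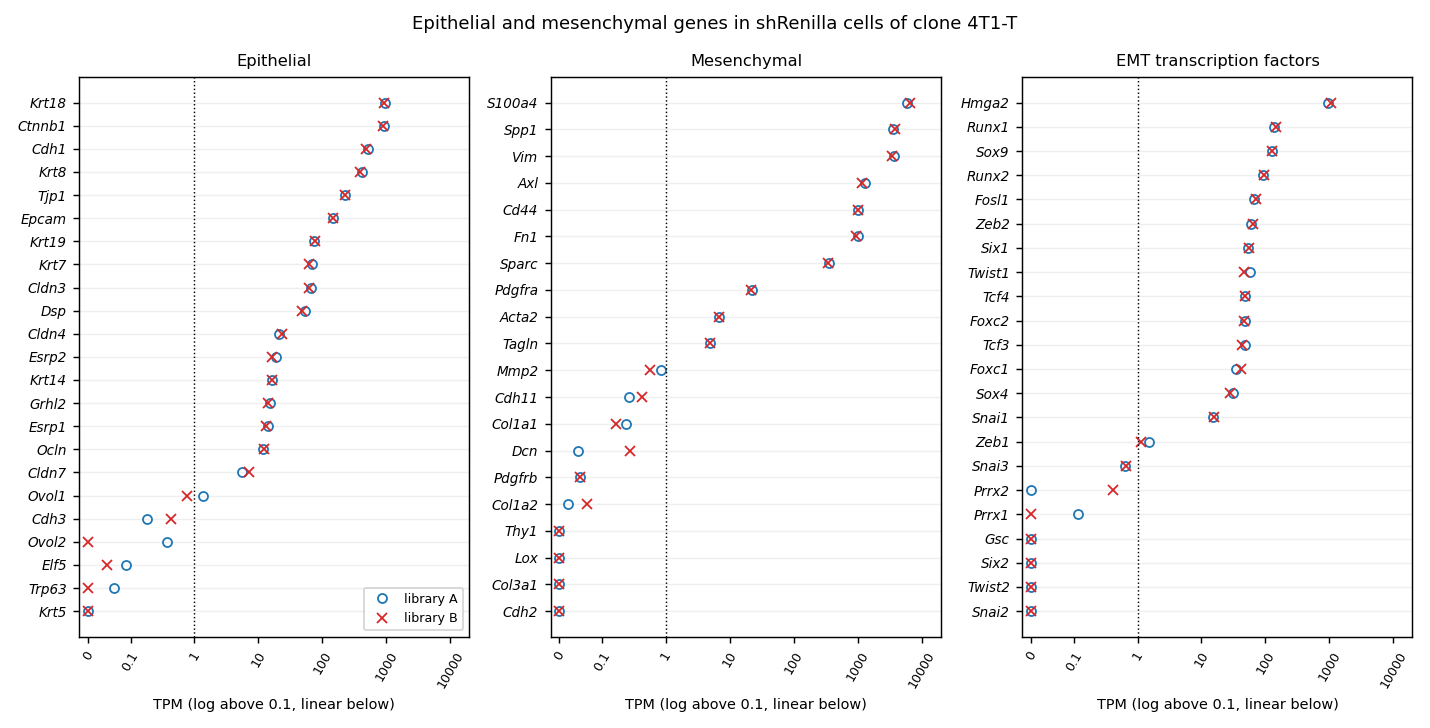
Level in TPM (log axis above 0.1, linear below) of selected epithelial genes, mesenchymal genes and EMT transcription factors in library A (circles) and library B (crosses) of shRenilla cells, ordered by mean within each panel; the dotted line marks 1 TPM. Vim lies at 3642 and 3417 TPM and Cdh1 at 514 and 484 TPM, and Krt5, Cdh2 and Snai2 lie at 0.

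Among 28 transcription factors tied to EMT, 19 were expressed (67.9%, against 51.7% of all entries) and 3 were abundant, against 9.32% of all entries. Hmga2, an architectural chromatin protein of embryonic and tumour cells, was highest at 957 and 1049 TPM. The Runt factors Runx1 and Runx2 stood at 137 and 149 TPM (221 TPM by longest transcript) and at 93.3 and 93.5 TPM, Sox9, a factor of progenitor cells, at 127 and 129 TPM, and the AP-1 member Fosl1 at 67.2 and 70.3 TPM. In each of the Zeb, Twist and Snai pairs 1 member was far above the other. Zeb2 stood at 58.9 and 63.3 TPM (101 TPM by longest transcript) and Zeb1 at 1.52 and 1.14 TPM. Twist1 stood at 57.98 and 46.3 TPM, and Twist2 was at 0 reads. Snai1 stood at 15.2 and 15.9 TPM, and Snai2 was at 0 reads, where 3 reads would be 0.386 and 0.395 TPM.

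Of the receptors used to class breast cancers, both hormone receptors were low and Erbb2 was higher. Esr1, the oestrogen receptor alpha, stood at 1.98 and 1.68 TPM, or 2.98 TPM by longest transcript. Pgr, the progesterone receptor, had 0 and 1 reads in A and B. Erbb2, the receptor kinase HER2, stood at 32.1 and 32.5 TPM and the prolactin receptor gene Prlr at 0 and 0.0694 TPM. Of 36 receptors in the list 23 were expressed (63.9%, against 51.7% of all entries). After Axl, the highest were Met, the receptor of hepatocyte growth factor, at 215 and 202 TPM, Epha2, an ephrin receptor, at 167 and 151 TPM, and the TGF-beta receptor gene Tgfbr1 at 152 and 143 TPM. Erbb4, Kit, Fgfr4 and Ret were at 0 reads.

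Genes of the mammary lineages were read in part. Milk protein genes Csn1s1, Csn1s2a, Csn1s2b, Wap, Lalba and Glycam1 were at 0 reads. Csn3, kappa-casein, was the exception at 20.5 and 19.8 TPM, or 36.1 TPM by longest transcript, and Csn2 stood at 0.0375 and 0 TPM. Of 20 basal and myoepithelial genes 7 were expressed (35.0%, against 51.7% of all entries). They were led by the widely used integrin chain Itgb1 at 939 and 909 TPM and by Procr, the protein C receptor that marks a mammary progenitor, at 207 and 214 TPM. Smooth muscle actin gene Acta2 stood at 6.75 and 6.79 TPM.

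Few serpins were on. Of 63 serpin entries 10 were expressed (15.9%, against 51.7% of all entries), and 20 (31.7%) were at 0 reads, against 26.9%. Serpine2 stood with Serpinh1, a collagen chaperone without inhibitor activity, at 121 and 114 TPM, and Serpinb6a, an intracellular inhibitor, at 95.9 and 94.9 TPM (178 TPM by longest transcript). Serpine2 was the highest of the secreted inhibitory serpins in the list. Serpinb9, the granzyme B inhibitor, stood at 18.5 and 20.04 TPM, and Serpinb5 (maspin) at 14.6 and 11.5 TPM. Serpinb6 and Serpinb9 genes lie in families of close copies, so their reads are uncertain.

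Slpi was not the highest inhibitor with a WAP domain. Wfdc2, a secreted WAP protein of epithelium, stood at 1167 and 1189.9 TPM, and Slpi at 249 and 269 TPM. Among the inhibitors of metalloproteinases, Timp2 stood at 945 and 951 TPM and Timp1 at 292 and 318 TPM, while Timp3 stood at 0.319 and 0.882 TPM. Among the cystatins, which block cathepsins, Cstb stood at 672 and 661 TPM and the secreted Cst3 at 508 and 510.3 TPM. Others were low, with Cst6 at 2.798 and 3.19 TPM and Cst7 at 1.58 and 2.16 TPM, and Stfa1 and Stfa2 were at 0 reads. Spint1 and Spint2, Kunitz inhibitors of membrane serine proteases, stood at 109.7 and 103 TPM and at 80.3 and 78.8 TPM. Reck, a membrane-bound inhibitor of metalloproteinases, stood at 17.96 and 16.8 TPM. In all 18 of 54 entries listed as inhibitors other than serpins were expressed (33.3%, against 51.7% of all entries). At 0 reads were 17 (31.5%, against 26.9% of all entries), among them Eppin, Wfdc5, Wfdc12 and Ambp.

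The enzymes on the other side were led by lysosomal cathepsins. Ctsl, cathepsin L, stood at 1876 and 1811 TPM, and was the highest of the 175 entries with a length in the protease lists. Ctsd and Ctsb stood at 329 and 314 TPM and at 319 and 297 TPM, and Ctsz at 196 and 176 TPM. Of 24 genes in the cathepsin list 12 were expressed, a share near the 51.7% of all entries. In that list 6 were abundant, against 9.32% of all entries, and 9 were at 0 reads, against 26.9% of all entries. Ctss and Ctsg, cathepsins of immune cells, were at 0 reads, and so was Ctse.

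Among 23 matrix metalloproteinase genes 9 were expressed (39.1%, against 51.7% of all entries) and 2 were abundant, against 9.32% of all entries. Mmp3, stromelysin-1, stood at 108 and 113 TPM, and Mmp14, the membrane-bound MT1-MMP that activates other members, at 102 and 101 TPM. Mmp11 stood at 34.4 and 36.5 TPM, the gelatinase gene Mmp9 at 23.4 and 22.5 TPM and Mmp10 at 17.8 and 22.1 TPM. The other gelatinase gene, Mmp2, stood at 0.849 and 0.553 TPM. Of 29 ADAM and ADAMTS genes 16 were expressed (55.2%, near the 51.7% of all entries). The sheddases Adam9, Adam17 and Adam10 stood at 160.5 and 164 TPM, at 127 and 115 TPM and at 121 and 120.0 TPM, and the order of Adam17 and Adam10 changed between libraries. Among other metallopeptidases, Cpe, a carboxypeptidase that trims prohormones, stood at 503 and 493 TPM, Cpd at 183 and 173 TPM and Ece1, which activates endothelin, at 164 and 157 TPM.

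Tmprss11e led the secreted and membrane serine proteases. Tmprss11e, a transmembrane serine protease of squamous and mucosal epithelium, stood at 390.5 and 365 TPM. Htra1, a secreted protease, stood at 179.9 and 177 TPM, and Klk10, a kallikrein-related gene, at 66.3 and 71.3 TPM. St14 (matriptase) and Prss8 (prostasin), which act with Spint1 and Spint2 in epithelium, stood at 19.9 and 19.3 TPM, or 31.8 TPM by longest transcript, and at 8.14 and 9.77 TPM. Tmprss2, Tmprss3, Tmprss13, Hpn and Dpp4 were at 0 reads. In this list 16 of 47 were expressed (34.0%, against 51.7% of all entries).

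The proteases that Slpi is best known to block were not detected. Elane (neutrophil elastase) and Ctsg (cathepsin G) were at 0 reads in both libraries. For Elane, 3 reads would be 0.793 and 0.812 TPM. Of 31 entries in the list of granule and pancreatic proteases 21 (67.7%) were at 0 reads, against 26.9% of all entries. The unread ones include Mpo, a peroxidase gene counted in that list though it is not a protease. In the list 3 (9.68%) were expressed, against 51.7%. Of these 3, Cela1, a pancreatic elastase, was highest at 2.48 and 2.42 TPM, or 3.86 TPM by longest transcript.

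The plasminogen and thrombin system that Serpine2 acts on had reads for receptors and activators and none for plasminogen. Plau, urokinase, stood at 328 and 313 TPM and its receptor gene Plaur at 118 and 123 TPM. Plat, tissue plasminogen activator, stood at 6.13 and 5.502 TPM. Plg, plasminogen, which these enzymes cut, was at 0 reads, where 3 reads would be 0.210 and 0.215 TPM. F2r and F2rl1, the protease-activated receptors PAR1 and PAR2, stood at 514 and 516 TPM and at 515 and 526 TPM. F2, prothrombin, stood at 1.19 and 1.101 TPM, and F3, tissue factor, at 13.7 ± 0.437 TPM (SD, n = 2). Thbd, thrombomodulin, was at 0 reads, while Procr, its partner in protein C activation, was abundant as given above. S100a10 and Anxa2, which form a plasminogen receptor at the cell surface, stood at 1092 and 1193 TPM and at 366 and 351 TPM. Lrp1, the receptor that takes up serpin-protease complexes, stood at 44.5 and 39.4 TPM. Fibrinogen genes Fga, Fgb and Fgg were at 0 reads.

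Over all 117 entries of the inhibitor lists 28 were expressed (23.9%), with 4865 and 4897 TPM in sum. That sum takes in Serpinh1, described above as without inhibitor activity. It also takes in Aplp2, at 286 and 277 TPM, App, at 65.8 and 62.7 TPM, and Col7a1, at 39.2 and 36.9 TPM. Whether the products of these genes act as inhibitors here was not tested. Over all 175 entries of the protease lists, Mpo among them, 65 were expressed (37.1%), with 6383 and 6205 TPM in sum. Both shares are below the 51.7% of all entries. RNA levels of this kind say nothing of how much enzyme is active.

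**Figure D3:**
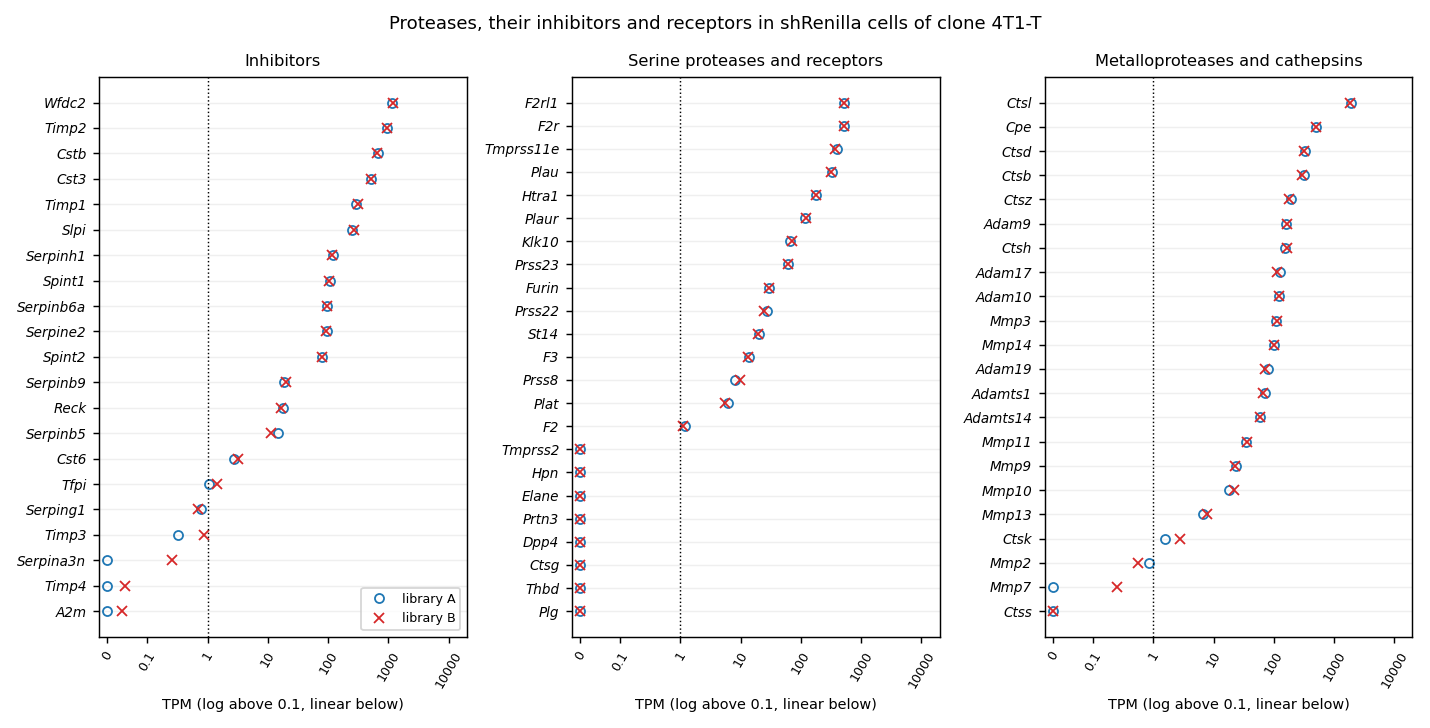
Level in TPM (log axis above 0.1, linear below) of selected protease inhibitors (left), serine proteases with their receptors and cofactors (middle), and metalloproteases and cathepsins (right) in library A (circles) and library B (crosses) of shRenilla cells; the dotted line marks 1 TPM. Ctsl lies at 1876 and 1811 TPM and Wfdc2 at 1167 and 1189.9 TPM, and Plg, Elane, Prtn3 and Ctsg lie at 0.

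Genes of the basement membrane ranged widely. Of 27 such genes 17 were expressed (62.96%, against 51.7% of all entries), and the list had a median of 22.7 TPM. The laminin chains Lamc1 and Lamb1 stood at 353 and 321 TPM and at 227 and 211 TPM. Collagen IV genes Col4a2 and Col4a1 stood at 205 and 202 TPM and at 185 and 172 TPM, against values under 1 TPM for collagen I as given above. Dag1, the laminin receptor dystroglycan, stood at 425 and 433 TPM. Among 26 integrin chains 17 were expressed (65.4%). After Itgb1, the alpha chains Itga3 and Itga6, which bind laminin, stood at 574 and 519 TPM and at 312 and 303 TPM (487 TPM for Itga6 by longest transcript), and Itgav at 223 and 223 TPM.

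The share of cytokine genes that were on was near that of all genes. Of 54 cytokines and chemokines with a length 27 were expressed, against 51.7% of all entries, and 3 were abundant, against 9.32% of all entries. These 3 are Mif at 761 and 769.6 TPM, the macrophage growth factor gene Csf1 at 287 and 290.4 TPM and the epithelial cytokine gene Tslp at 284 and 287 TPM. Ccl2, which draws monocytes, stood at 89.3 and 91.5 TPM, Lif at 73.9 and 72.5 TPM and Csf3, the granulocyte growth factor G-CSF, at 46.9 and 51.4 TPM. Cxcl13, Cxcl14, Ccl3, Ccl4, Ifnb1, Il17a and Tnfsf11 were at 0 reads. Of 44 angiogenic and growth factors 30 were expressed (68.2%, against 51.7% of all entries). Cyr61, a matrix protein that binds integrins, stood at 516 and 497 TPM, the activin chain Inhba at 288 and 288 TPM, Angptl2 at 287 and 270.2 TPM and Thbs1, an antagonist of vessel growth, at 207 and 191 TPM. The growth factors Areg and Hbegf, ligands of the EGF receptor, stood at 171 and 167 TPM and at 146 and 138 TPM. Tgfa, another such ligand, stood at 142 and 137 TPM, and Pdgfa at 117 and 112 TPM. Vegfb stood at 139.5 and 142 TPM and Vegfa at 47.6 and 44.1 TPM.

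Most markers of other cell types were not expressed, with some exceptions in each list. The title of the series names vascular mimicry, in which tumour cells line channels that carry blood, so endothelial genes are given first. Of 24 endothelial markers 3 were expressed (12.5%, against 51.7% of all entries). These are Eng, a TGF-beta co-receptor, at 44.1 and 41.4 TPM, Flt1, a VEGF receptor, at 16.1 and 17.3 TPM and Egfl7 at 2.47 and 2.23 TPM. Tie1 stood at 0.846 and 1.62 TPM and so passed in B alone. The defining genes Pecam1, Cdh5 and Kdr stood at 0.167 and 0.171 TPM, at 0.0619 and 0.253 TPM and at 0 and 0.0884 TPM, and the 6 defining endothelial genes together at 0.687 and 0.885 TPM. Of 32 leukocyte markers 4 were expressed, with 50.01 and 48.3 TPM in sum over the list. These are the lysosomal protein gene Cd68 at 27.5 and 25.6 TPM, the endotoxin co-receptor gene Cd14 at 18.8 and 16.6 TPM, Mrc1 at 1.63 and 1.75 TPM and Cx3cr1 at 1.15 and 1.36 TPM. The 7 defining leukocyte genes together stood at 0.170 and 0.476 TPM, with Cd3e, Tyrobp and Lyz2 at 0 reads. Of 16 fibroblast markers 3 were expressed, with 83.9 and 83.4 TPM in sum. They are Gsn, the actin-severing protein gelsolin, at 58.98 and 59.6 TPM, the PDGF receptor gene Pdgfra at 22.1 and 21.03 TPM and Col14a1 at 1.78 and 1.71 TPM. The 6 defining fibroblast genes, Pdgfra among them, stood at 22.8 and 21.8 TPM together. Of 23 markers of fat, muscle and neural cells 4 were expressed, with 35.3 and 30.4 TPM in sum. They are the muscle genes Tnni2 at 14.1 and 12.3 TPM, Acta1 at 4.23 and 3.29 TPM and Tnnt3 at 2.14 and 1.35 TPM, and Mbp, myelin basic protein, at 13.5 and 12.6 TPM. The defining genes Adipoq, Ckm, Snap25 and Alb, the last a liver gene, were at 0 reads. The 8 defining epithelial genes stood at 2188 and 2111 TPM together and were all expressed, against 51.7% of all entries. The 7 defining mesenchymal genes stood higher, at 4774 and 4465 TPM together, and 5 of them were expressed (71.4%).

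Many genes with no reads belonged to large families. Of all entries 6312 (26.9%) had 0 reads in both libraries, and for the median gene length 3 reads would be 0.231 and 0.237 TPM. Such limits take in counting error alone, because reads of amplified cDNA do not each stand for a molecule. Of 1122 olfactory receptor entries 967 (86.2%) were at 0, of 335 vomeronasal receptors 283 (84.5%), of 61 defensins 52 and of 52 keratin-associated proteins of hair 43. By contrast 17 of 359 numbered zinc finger genes were at 0, and 303 were expressed. Of the olfactory receptors 8 were expressed, with Olfr856-ps1 and Olfr805 highest at 6.31 and 5.05 TPM and at 5.49 and 5.22 TPM. The longest stretch of neighbouring protein-coding genes with no read was on chromosome 2, at chr2:88045920-89297268, and held 49 olfactory receptor genes. All 41 protein-coding genes of chromosome Y were at 0 reads. Xist, which silences an X chromosome in female cells, had 8 and 2 reads. Among the other chromosomes, the share of protein-coding genes expressed ran from 38.7% on X and 42.8% on chromosome 7 to 64.1% on chromosome 12.

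The Hox genes, which set position along the body axis, were on in 1 of their 4 clusters. Of 11 HoxA genes 9 were expressed, and of 10 HoxB, 9 HoxC and 9 HoxD genes 0 were. Hoxa5 stood at 281 and 272 TPM, Hoxa2 at 117 and 118 TPM, Hoxa6 at 84.8 and 91.97 TPM and Hoxa10 at 35.1 and 38.01 TPM. Hoxa11 was at 0 reads and Hoxa13 had 0 and 1 reads in A and B, both beyond Hoxa10 along the cluster. Of the HoxB genes 9 were at 0 reads. The sum over HoxA was 573 and 576 TPM, against 1.82 and 1.65 TPM over HoxD.

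**Figure D4:**
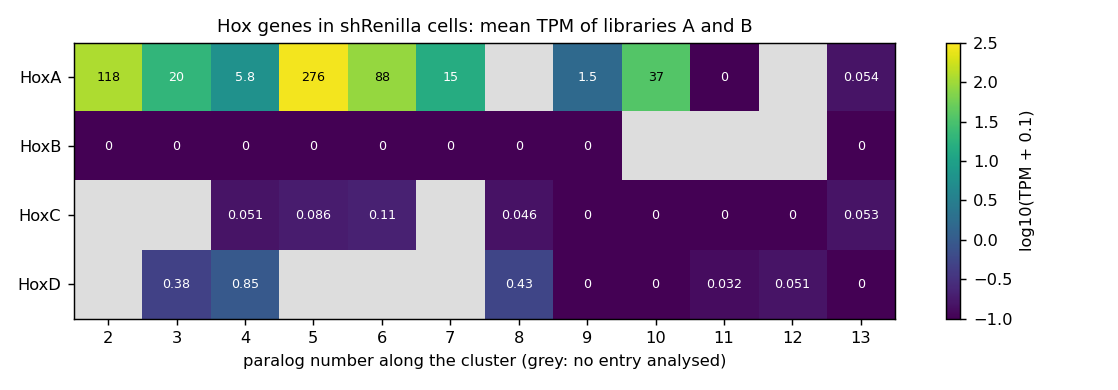
Mean level (TPM) of libraries A and B for each Hox gene in shRenilla cells, with the 4 clusters as rows and the paralog numbers 2 to 13 as columns; colour is log10(TPM + 0.1), and grey cells have no entry here. The first row, HoxA, holds all levels above 1 TPM, up to 276 TPM for Hoxa5.

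The cell cycle inhibitor genes Cdkn2a and Cdkn2b, neighbours on chromosome 4, were at 0 reads in both libraries. Cdkn2a (chr4:89274471-89294653, minus strand) encodes p16 and p19Arf, and 3 reads would be 0.666 and 0.681 TPM. Cdkn2b (chr4:89306299-89311039, minus strand) encodes p15, and 3 reads would be 0.561 and 0.574 TPM. The gene on the near side, Mtap, which salvages methionine (chr4:89137122-89181081, plus strand), stood at 2111 and 1992 TPM and ranked 28th among protein-coding genes. On the far side Dmrta1, Zfp352, Elavl2, Izumo3 and Tusc1 had at most 2 reads in a library. The next genes there were expressed, with Caap1 at 20.1 and 19.6 TPM and Plaa at 243 and 243 TPM. Before Mtap, the type I interferon genes and their unnamed relatives had at most 9 reads in a library and Klhl9 stood at 294 and 308 TPM. Whether the locus is present in these cells was not tested.

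CpG content upstream of a gene went with its level. Of 19842 protein-coding genes off chromosome 18, 16261 (81.95%) had a RefSeq window of 250 bases before to 50 after the start. The median ratio of observed to expected CpG was 0.851 in windows of abundant genes, 0.793 between 10 and 100 TPM, 0.681 between 1 and 10 TPM and 0.203 at 0 reads. A ratio of at least 0.6 was found in 84.5% of windows of abundant genes and in 13.8% of those at 0 reads, and 50.8% of all. Without olfactory and vomeronasal receptors the share at 0 reads was 18.6%. In the class with reads but under 1 TPM in a library the median ratio was 0.341, and 28.1% of windows were at 0.6 or more. Of its genes 78.6% had a window, against 81.6% to 83.8% in the other classes.

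Motifs were searched on both strands of the same windows. TATAAA was in 7.61% of windows of abundant genes, 25.7% of those at 0 reads and 13.1% of all. CCGCCC, the core of a GC box, was in 69.7%, 18.99% and 48.6%. CCAAT was in 41.3%, 39.97% and 39.4%, nearly the same share in each. None of the 3 motifs contains another, and a match is a run of letters and not a bound site.

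The genes of the printed sequences fall on both sides of that pattern. Serpine2 and Slpi, the inhibitors that the study silenced in other lines, differ in this respect, with a CpG ratio over the printed bases of 0.912 for Serpine2 and 0.183 for Slpi. Spp1, among the highest genes of all, had a ratio of 0.255. Vim had 0.376, with TATAAA starting 32 bases before the start. Hoxa5 had 1.11. Cdkn2a, with 0 reads, had 1.08 before its upstream start, which is printed, and 0.316 with 7 CpG before its other start (chr4:89282193-89282442, minus strand), which is not.

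**Figure D5:**
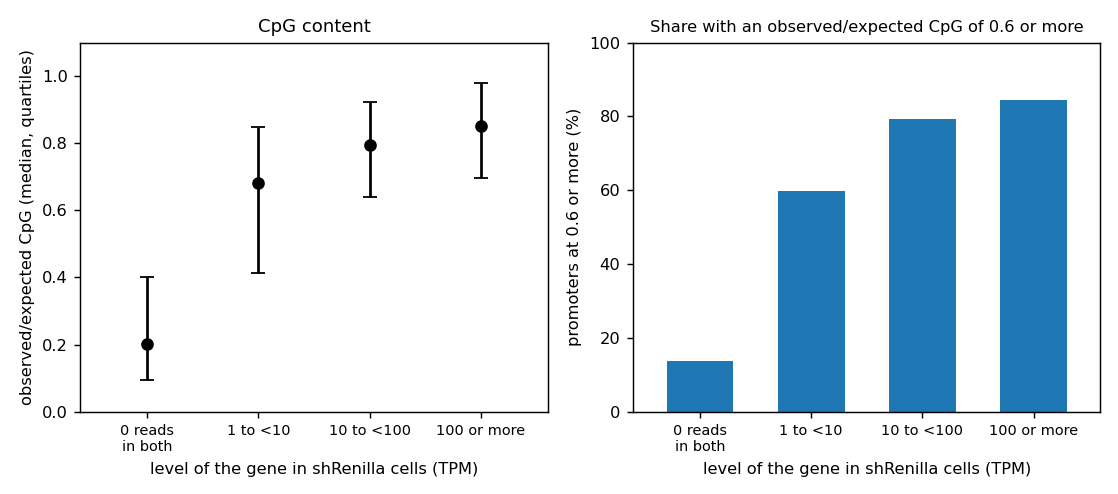
Left, median and quartiles of the observed to expected CpG ratio in windows around the start of protein-coding genes, by their level in shRenilla cells (TPM); right, percent of windows with a ratio of 0.6 or more. The median was 0.851 for abundant genes and 0.203 for genes with 0 reads. The class with reads but under 1 TPM in a library is not drawn.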

How the data were processed

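Total RNA of clone 4T1-T (100 ng) was turned into amplified cDNA by NuGEN's Ovation RNA-Seq V2 protocol and read as 76 bp, per the labels' protocols. The submitters' processing notes name Bowtie2, HTSeq, DESeq and the mm10 build. Versions, annotation and strand setting were not given in the sources used here, so reads of overlapping and antisense genes cannot be told apart. The deposited table holds log2 values by the authors that start at a floor of 6.73 and have the form of DESeq's variance-stabilizing transformation, which no label states. Inverting it and dividing by the value of 1 read gave counts, of which 100% were whole within 0.01 reads in libraries A and B. The inversion was tested on counts simulated with the same formula and floor. Such a test checks the arithmetic and cannot show that the deposited table used that formula.

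TPM used merged exon lengths of GENCODE M21 (GRCm38). Of 23479 entries 23008 matched, 21845 by symbol and 1163 by a RefSeq synonym. Those without a length took 1.86% and 2.07% of reads in A and B. Names of 27 entries had become dates and are not named. Some members of the lists are counted but not reported here by name. No test was made. The libraries, lists and members were chosen with earlier results of these data known. Named genes were drawn from the 5 markers, the 20 highest protein-coding genes outside the ribosomal protein list, the 10 entries with most reads, the 10 highest long noncoding RNAs of the list, the 6 largest ratios of A to B, and per list up to 8 highest and 8 unread members. Further genes were named after their values were seen, as members of a list, as contrasts to a named gene, or for copies and neighbours. Python 3.11.15 with pandas 2.3.3 was used.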

Additional observations from a re-analysis of the deposited data

How the results depend on the processing

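No paired analysis was possible because the values come from 1 group with no test. The count of expressed entries ran from 9952 at a minimum of 5 TPM to 12500 at 0.5 TPM, and was 11816 with the longest transcript as length. With A alone it was 12142 and with B alone 12131. That length put 1048 expressed entries over 1.5 times higher and 0 over 1.5 times lower. The 100 highest entries held 22.7% of TPM (22.5% with A alone and 22.9% with B alone), 22.02% with the longest transcript and 19.2% of reads with no length scaling. The log2 ratio of summed epithelial to mesenchymal TPM was -1.14, -0.78 without the highest member of each list, and 0.71 from medians, so its direction differs between sums and medians. The log2 ratio of the inhibitor sum to the protease sum, over the lists as given, was -0.37, and -0.23 with the longest transcript. It was -0.27 without the highest member of each list and -1.23 from medians. Medians were taken with 0.01 TPM added. With A alone or B alone these ratios stayed between -1.16 and -1.11 and between -0.39 and -0.34. Entries with at most 3 reads in both libraries numbered 9748, against 6312 with 0 reads in both, 7592 with 0 in A and 7439 with 0 in B. The median absolute log2 ratio of A to B was 0.088, 0.10 with no filter on low counts and 0.084 on normalized reads. Depth limits statements on genes under a few reads, and 2 libraries limit all errors given.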

Other observations

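Genes of growth control and antigen presentation were also described in the shRenilla libraries. Of 30 tumour suppressor and oncogene transcripts in the list 25 were expressed (83.3%, against 51.7% of all entries). Ccnd1, the G1 cyclin D1, stood at 1937 and 1992 TPM and Myc at 1106 and 1148 TPM. Nras, a Ras gene, stood at 454 and 442 TPM. Cdkn2c, which encodes p18 and is a relative of the unread Cdkn2a and Cdkn2b, stood at 148 and 155 TPM. Mycn was at 0 reads. Trp53 itself stood at 78.8 and 71.3 TPM and its antagonist Mdm2 at 132 and 134 TPM.

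Of 20 long noncoding RNAs with a length 13 were expressed (65.0%, against 51.7% of all entries). After Malat1, at 9393 and 9794 TPM, the highest were the small nucleolar RNA host genes Gas5 at 870.1 and 897 TPM and Snhg1 at 217 and 226 TPM, and Tug1 at 209 and 200.3 TPM. Neat1, the scaffold of paraspeckles, stood at 42.5 and 42.4 TPM. Hotair, Miat, Tsix and Mirg were at 0 reads.

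Of 25 MHC and antigen presentation genes with a length 16 were expressed (64.0%, against 51.7% of all entries). Beside B2m, the class I heavy chain genes H2-D1 and H2-K1 stood at 618 and 590.2 TPM and at 267 and 261 TPM, and the peptide transporter genes Tap1 and Tap2 at 4.18 and 4.33 TPM and at 6.74 and 6.76 TPM. H2 genes have close copies and BALB/c cells carry other alleles than the reference genome, so their reads are uncertain. Class II genes H2-Aa and H2-Eb1 were at 0 reads, while Cd74, the class II invariant chain, stood at 41.7 and 43.1 TPM.

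Transport and metabolism genes add further levels. Of 369 solute carrier entries 193 were expressed (52.3%), near the 51.7% of all entries. The mitochondrial ADP/ATP carriers Slc25a4 and Slc25a5 stood at 1923 and 1999 TPM and at 1534 and 1514 TPM, and the glucose transporter gene Slc2a1 at 505 and 523 TPM. Of 102 cytochrome P450 entries 14 were expressed (13.9% of those with a length, against 51.7% of all entries). Another 53 (52.0%) were at 0 reads, against 26.9% of all entries. The highest P450 genes were Cyp51, an enzyme of sterol synthesis, at 239 and 231 TPM and Cyp1b1, a target of the aryl hydrocarbon receptor, at 109.6 and 118 TPM. Cyp1a1 and Cyp1a2, of the same family as Cyp1b1, were at 0 reads in both libraries. Ptgs2, the inducible cyclooxygenase COX-2, was chosen after its value was seen and stood at 1330.2 and 1358 TPM.

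Between libraries, Galnt12 had the largest gap among entries with a mean of at least 100 reads, at 131 and 76 reads. Dtnbp1 had 145 and 89 reads, and Paqr8 87 and 134 reads. Entries of short RNAs (776 in all) held 2.41% and 2.47% of TPM, and their levels are uncertain because the entries are hardly longer than a read. Mir682, with 3093 and 3213 reads, stood at 8378 and 8909 TPM.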
